A study of Mus musculus with 18 samples.

Results

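Astrocyte genes were examined in bulk RNAseq of the dorsal spinal cord. The 10 genes, among 34579 loci, were chosen by name for their known role in astrocytes, with earlier results of these data known. They comprise 4 genes of the reactive state (Gfap, Vim, Nes and Cd44) and 6 genes of astrocyte identity (Aqp4, Aldh1l1, Gja1, Gjb6, S100b and Sox9). Each was found by its symbol in all 3 deposited tables. Sox9 had more than 1 row, and the row with the higher mean level was used.

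The tissue came from the L3–5 segments of C57BL/6 mice aged 3 months, given as C57BL/6N in the study's methods. All mice carried a recombinant adeno-associated virus (rAAV), injected on both sides into the dorsal horn after laminectomy, so that the controls shared the surgery and the virus. The control vector encoded LacZ (β-galactosidase). The other vectors encoded either HDAC4 in its wild-type form (HDAC4 wt) or HDAC4 3SA, a mutant held in the nucleus because sites needed for its export are altered. HDAC4 is a histone deacetylase that acts as a transcriptional co-repressor. Tissue was collected 24 h after an injection into the hindpaw of complete Freund's adjuvant (CFA), which causes a long-lasting inflammation, or of saline. The 6 groups of 3 mice were LacZ saline, LacZ CFA, HDAC4 wt saline, HDAC4 wt CFA, HDAC4 3SA saline and HDAC4 3SA CFA, 18 mice in all. No group without a virus was analysed here, and the promoter of these vectors is not given in the sources used here.

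Astrocytes are the glial cells that clear glutamate and potassium, regulate water flow and form coupled networks through gap junctions. After injury, inflammation or disease of the spinal cord they can become reactive, a state marked by more intermediate filament protein, larger processes and secreted immune factors. The identity genes label astrocytes in both states, and the reactive genes are commonly used to mark the second. In dorsal horn, reactive astrocytes are studied for their part in persistent pain.

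Levels are given in FPKM, the fragments of a locus per length of its exons, scaled to the mapped total. Each table held 1 such value per locus for each paw treatment of a vector, which is the authors' estimate over 3 mice. Values per mouse were not analysed here, so no spread between mice is known, no value below carries an error and no difference was tested. A change is given as the log2 ratio of the group values after 0.1 FPKM was added, and is said to pass the fold at 0.5 or more in either direction. The share of loci that pass the same fold is given for comparison, over loci whose mean over both groups reached 1 FPKM. The tables were normalised in separate runs, so the vector and the run of a table cannot be told apart, and levels of different vectors are compared as a description only. The summed FPKM of a group ranged from 638343 to 768051, and 17393 to 18115 loci reached 1 FPKM. The median log2 ratio of loci above 5 FPKM was between -0.01 and 0.01, rounded to 2 decimals, in every comparison. The Hdac4 locus (chr1:91928776-92180314) was at 7.41 FPKM in LacZ saline, 10.1 in HDAC4 wt saline and 8.86 in HDAC4 3SA saline, and at 7.72, 10.8 and 8.81 in the CFA groups in the same order. Markers of astrocytes and neurons were present in every group. In bulk tissue, fewer cells of a type and less RNA per cell cannot be told apart.

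Short stretches of 3 promoters are shown because they hold a motif of a factor or of the basal machinery at the start of a gene that the results turn on. They are from RefSeq (GRCm38.p6), read 5′ to 3′ on the strand of the gene, with the motif in capitals. Of the 10 genes, 8 were in the table of promoters.
Gfap (chr11:102897184-102897213, minus strand, STAT motif TTCNNNGAA): aatgggggtgcTTCCAGGAAgtcaggggca
Vim (chr2:13574267-13574296, plus strand, TATA motif TATAAA): tcctaacagtgtTATAAAagcagcgccctt
Gja1 (chr10:56377269-56377298, plus strand, AP-1 motif TGACTCA): cctccttccagtTGAGTCAgtggcttgaaa
The STAT motif of Gfap began at position -2 from the annotated start, within an annotated exon of the gene (GENCODE M21), and 8.30% of all 32851 promoters held these letters on either strand. The TATA motif of Vim began at position -32, and 13.6% of promoters held one. The AP-1 motif of Gja1 began at position -19 and reads as the reverse complement of the letters searched, and 5.20% of promoters held one. Each of these 3 motifs was in the 300 bases of only 1 of the 8 genes. The SOX motif ACAAAG (18.7% of promoters) and the MEF2 motif (0.557%) were in none of the 8. The NFI motif TTGGC, which 46.7% of promoters held, was in those of Vim and S100b. A match of letters is a description and not a site of binding.

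**Figure D1:**
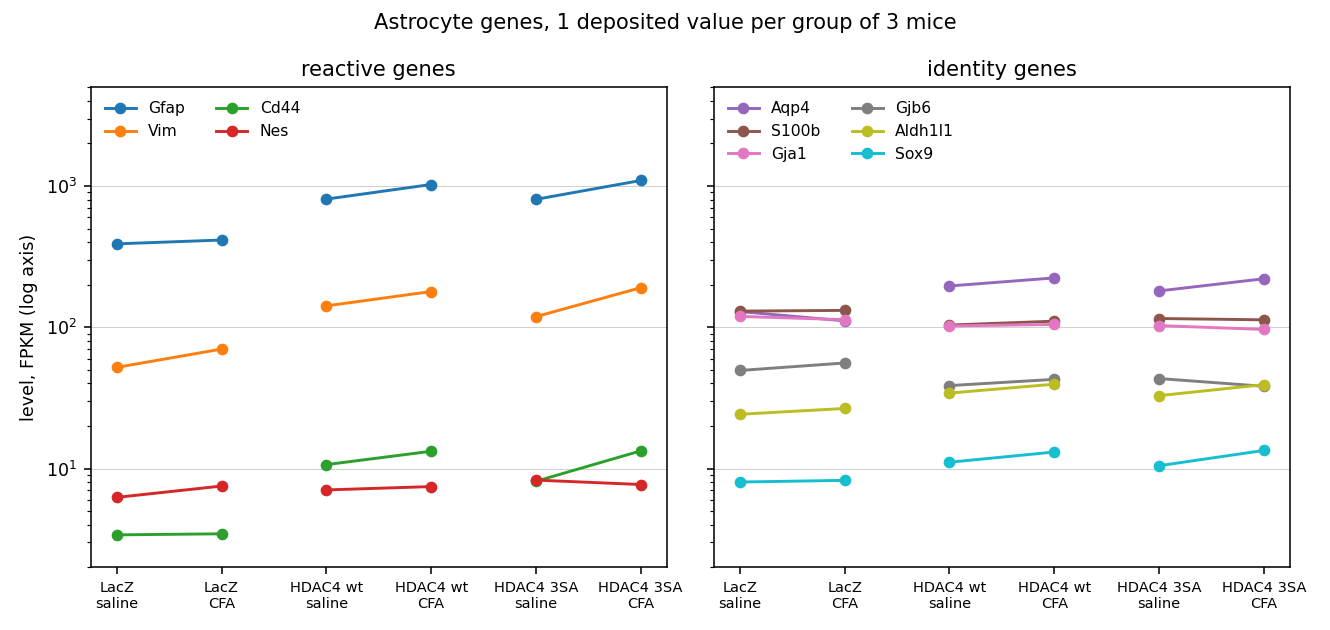
Level of each gene in FPKM (log axis) in the 6 groups, with 1 point per group value and a line from saline to CFA of the same vector. The points are the authors' values over 3 mice and carry no error bars. Gfap, Vim and Cd44 sit higher in the 4 HDAC4 groups than in the LacZ groups, while Gja1, Gjb6 and S100b sit slightly lower.

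Of the reactive genes, Gfap, Vim and Cd44 stood at higher levels in all 4 HDAC4 groups than in both LacZ groups, whatever was injected into the paw. Nes did not. Gfap encodes the glial fibrillary acidic protein, the main intermediate filament of mature astrocytes. Its locus (chr11:102887234-102897313) was at 389 FPKM in LacZ saline, 415 in LacZ CFA, 807 in HDAC4 wt saline, 1025 in HDAC4 wt CFA, 805 in HDAC4 3SA saline and 1094 in HDAC4 3SA CFA. The lowest HDAC4 value was 1.94 times the highest LacZ value. Gfap was the most abundant of the 10 genes per length in every group, 2.99 times the next gene in LacZ saline and 4.96 times in HDAC4 3SA CFA.

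Vim encodes vimentin, an intermediate filament protein of immature and reactive astrocytes and also of endothelial cells, fibroblasts and microglia. Its locus (chr2:13573939-13582829) was at 52.0 and 70.1 FPKM in LacZ saline and CFA, at 142 and 179 in HDAC4 wt, and at 119 and 191 in HDAC4 3SA. The HDAC4 values lay above both LacZ values, the lowest being 1.70 times the highest of LacZ. Cd44 encodes a surface receptor for hyaluronan that fibrous and reactive astrocytes carry, and that leukocytes carry as well. The level of its locus (chr2:102811137-102901661) was 3.39 and 3.45 FPKM in LacZ saline and CFA, 10.7 and 13.2 in HDAC4 wt, and 8.12 and 13.3 in HDAC4 3SA. It had the widest range of the 10 genes, with the highest group value 3.93 times the lowest.

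Nes encodes nestin, a filament protein of neural progenitors, ependymal and endothelial cells that reactive astrocytes can express again. Its locus (chr3:87970975-87980451) was at 6.25 and 7.52 FPKM in LacZ saline and CFA, 7.05 and 7.45 in HDAC4 wt, and 8.28 and 7.71 in HDAC4 3SA. The LacZ and HDAC4 values overlapped, and the highest value was 1.33 times the lowest.

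The identity genes formed 2 sets by level. Aqp4, Aldh1l1 and Sox9 were higher in all 4 HDAC4 groups than in both LacZ groups, and Gja1, Gjb6 and S100b were lower in all 4. With the 3 reactive genes, 6 of the 10 genes had all HDAC4 values above both LacZ values, against 31.7% of all loci, and 3 of the 10 had them all below, against 22.4% of all loci. The ratios of the lower set were small, the lowest LacZ value being 1.08 to 1.14 times the highest HDAC4 value. Summed over the 6 identity genes, the level was 460 FPKM in LacZ saline, 446 in LacZ CFA and between 485 and 534 in the HDAC4 groups.

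Aqp4 encodes aquaporin 4, the water channel of astrocyte endfeet. Its level was 129 FPKM in LacZ saline, 111 in LacZ CFA, 196 in HDAC4 wt saline, 224 in HDAC4 wt CFA, 181 in HDAC4 3SA saline and 221 in HDAC4 3SA CFA. LacZ CFA was the lowest of the 6 values, and the 4 HDAC4 values did not overlap those of LacZ. Aldh1l1, a folate-metabolising enzyme widely used to label astrocytes (chr6:90486479-90599948), was at 24.2 and 26.6 FPKM in LacZ saline and CFA, 34.2 and 39.5 in HDAC4 wt, and 32.8 and 39.3 in HDAC4 3SA. Sox9 encodes a transcription factor that drives the fate of glia and is kept in adult astrocytes. The level of its locus (chr11:112782224-112787756) was 8.02 and 8.24 FPKM in LacZ saline and CFA, 11.1 and 13.1 in HDAC4 wt, and 10.5 and 13.4 in HDAC4 3SA. In Aldh1l1 and Sox9, as in Gfap, both LacZ values were close to each other and the HDAC4 CFA values were the highest.

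Gja1 and Gjb6 encode connexin 43 and connexin 30, the channel proteins of astrocyte gap junctions. Gja1 (chr10:56377299-56390609) was at 119 and 113 FPKM in LacZ saline and CFA, 102 and 105 in HDAC4 wt, and 103 and 96.5 in HDAC4 3SA. Gjb6 (chr14:57123251-57133657) was at 49.4 and 55.9 FPKM in LacZ, 38.6 and 42.8 in HDAC4 wt, and 43.3 and 38.2 in HDAC4 3SA, in the same order. Both connexins were lowest in HDAC4 3SA CFA of all 6 groups. S100b encodes a calcium-binding protein of astrocytes that oligodendrocytes and Schwann cells also make. Its locus (chr10:76253692-76345361) was at 130 and 132 FPKM in LacZ saline and CFA, 104 and 110 in HDAC4 wt, and 115 and 113 in HDAC4 3SA. The S100b values carry a limit of the locus, which runs 84202 bases past the annotated gene and overlaps Dip2a and Gm16240. The Gja1 locus covered 62.8% of the annotated exon bases of its gene, and the other loci 90.4% to 100%.

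The order of the levels differed between the vectors. S100b was second after Gfap in both LacZ groups, and Aqp4 in all 4 HDAC4 groups. Vim stood below S100b, Aqp4 and Gja1 in both LacZ groups and above S100b and Gja1 in all 4 HDAC4 groups. At the lower end, Cd44 was last in both LacZ groups and in HDAC4 3SA saline, and Nes in the other groups. Summed over the 10 genes, the level was 911 FPKM in LacZ saline, 942 in LacZ CFA, 1453 in HDAC4 wt saline, 1759 in HDAC4 wt CFA, 1425 in HDAC4 3SA saline and 1827 in HDAC4 3SA CFA. The reactive genes made up 49.5%, 52.6%, 66.6%, 69.6%, 65.9% and 71.5% of these sums in the same order, mostly through Gfap.

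The first question of the design was what CFA does within each vector, where both values come from 1 table. In LacZ mice none of the 10 genes passed the fold, where 3.93% of 17416 loci passed it upwards and 3.23% downwards. Vim had the largest ratio, at a log2 of 0.43, followed by Nes at 0.26. Gfap was at 0.09 and Cd44 at 0.02, and Aqp4 was the lowest at -0.22. The median log2 ratio was 0.18 for the reactive and 0.03 for the identity genes, beside 0.00 for all loci.

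In HDAC4 wt mice none of the 10 genes passed the fold either, where 9.13% of 18083 loci passed it upwards and 4.94% downwards. All 10 ratios were above 1, from a log2 of 0.04 for Gja1 to 0.34 for Gfap and 0.34 for Vim. Cd44 was at 0.31 and Sox9 at 0.24. The medians were 0.32 for the reactive and 0.17 for the identity genes.

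In HDAC4 3SA mice Vim and Cd44 passed the fold upwards and no gene passed it downwards, so that 2 of 10 genes were past it beside 10.1% of 18034 loci past it upwards and 4.55% downwards. Cd44 rose by 1.64-fold (log2 0.71) and Vim by 1.60-fold (log2 0.68). Gfap, at a log2 ratio of 0.44, and Sox9, at 0.36, did not reach it. Nes was at -0.10, Gja1 at -0.09 and Gjb6 at -0.18. The medians were 0.56 for the reactive and 0.11 for the identity genes, beside 0.01 for all loci.

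**Figure D2:**
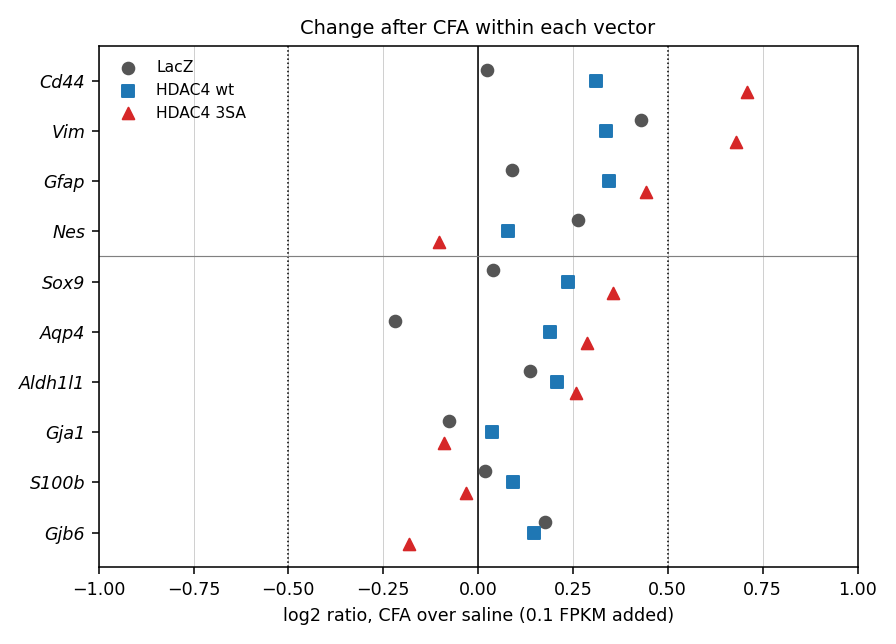
Log2 ratio of CFA over saline for each gene within LacZ (circles), HDAC4 wt (squares) and HDAC4 3SA (triangles), after adding 0.1 FPKM. Dotted lines mark the fold of 0.5 and the grey line separates reactive (top) from identity genes. The triangles of Cd44 and Vim, at 0.71 and 0.68, are the only points past a dotted line.

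The median of the reactive genes exceeded that of the identity genes by 0.15 log2 units with LacZ, by 0.16 with HDAC4 wt and by 0.45 with HDAC4 3SA. The LacZ gap was 0.06 without Vim or without Nes and 0.23 without Gfap or without Cd44, so it rests on single genes. In LacZ the higher ratios were those of Vim and Nes, while in HDAC4 3SA they were those of Cd44, Vim and Gfap, with Nes below 0. The classes overlapped in every vector: in HDAC4 3SA the identity genes ran from -0.18 for Gjb6 to 0.36 for Sox9, and the reactive genes from -0.10 for Nes to 0.71 for Cd44. The LacZ, HDAC4 wt and HDAC4 3SA values stand side by side for Cd44 as 0.02, 0.31 and 0.71. For Gfap they are 0.09, 0.34 and 0.44, for Aqp4 -0.22, 0.19 and 0.29, and for Sox9 0.04, 0.24 and 0.36.

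The difference between the CFA changes of a pair of vectors was taken per gene. Between HDAC4 3SA and LacZ it passed the fold for Cd44, at 0.68 log2 units, and for Aqp4, at 0.51, so that 2 of 10 genes were past it beside 8.85% of 17726 loci past it upwards and 6.94% downwards. Aqp4 is thus at the edge of the fold. No gene passed it between HDAC4 wt and LacZ, where 16.8% of loci did, nor between HDAC4 3SA and HDAC4 wt, where 17.2% did. For Vim the differences were -0.09 between HDAC4 wt and LacZ and 0.25 between HDAC4 3SA and LacZ. For Gjb6 the difference between HDAC4 3SA and LacZ was -0.36, and for Nes it was -0.37.

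The second question was how the vectors differ under the same paw treatment. In saline mice, 4 of 10 genes were past the fold upwards in HDAC4 wt relative to LacZ, where 14.6% of 17716 loci were past it upwards and 10.8% downwards. Cd44 was 3.14-fold higher (log2 1.62), Vim 2.72-fold (1.44), Gfap 2.07-fold (1.05) and Aqp4 1.52-fold (0.60). Aldh1l1, at 0.50 to 2 decimals, and Sox9, at 0.46, fell just short of the fold. Gja1 was at -0.22, S100b at -0.33 and Gjb6 at -0.36, none past it. The reactive median was 1.25 and the identity median 0.12, a gap of 1.13, beside 0.04 for all loci.

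In saline mice with HDAC4 3SA, 3 of 10 genes were past the fold upwards relative to LacZ, where 11.6% of 17596 loci were past it upwards and 9.48% downwards. They were Cd44 (2.40-fold, log2 1.24), Vim (2.29-fold, 1.19) and Gfap (2.07-fold, 1.05). Aqp4, at 0.48, lay just below the fold and Aldh1l1 was at 0.44. The reactive median was 1.12 and the identity median 0.10. Between HDAC4 3SA and HDAC4 wt no gene passed the fold, where 9.66% of 17787 loci did. The ratio of HDAC4 3SA over HDAC4 wt was lowest for Cd44, at a log2 of -0.39, and highest for Nes, at 0.23.

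In CFA mice the same 4 genes and a further 2 of identity were past the fold upwards with HDAC4 wt over LacZ, 6 of 10 beside 14.8% of 17819 loci past it upwards and 7.21% downwards. Cd44 was 3.84-fold higher (log2 1.91), Vim 2.56-fold (1.35), Gfap 2.47-fold (1.31), Aqp4 2.01-fold (1.01), Sox9 1.59-fold (0.66) and Aldh1l1 1.49-fold (0.57). With HDAC4 3SA over LacZ, these 6 genes were past the fold upwards beside 16.5% of 17780 loci, and Gjb6 was past it downwards beside 11.7% of them. Cd44 was 3.86-fold higher (1.92), Vim 2.72-fold (1.44), Gfap 2.64-fold (1.40) and Aqp4 1.99-fold (0.99). Gjb6 stood at 0.684 times its LacZ level (log2 -0.55). The gap between the reactive and identity medians was 1.10 for HDAC4 wt and 1.25 for HDAC4 3SA.

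Between HDAC4 3SA and HDAC4 wt in CFA mice no gene passed the fold, where 13.8% of 17993 loci did. The log2 ratios ran from -0.16 for Gjb6 to 0.09 for Gfap. The HDAC4 groups share the LacZ groups as their control, so their ratios over LacZ are not independent of each other. Nes was at 0.17 and 0.40 in saline mice with HDAC4 wt and HDAC4 3SA and at -0.01 and 0.04 in CFA mice, and was the reactive gene that passed the fold in none of these comparisons.

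**Figure D3:**
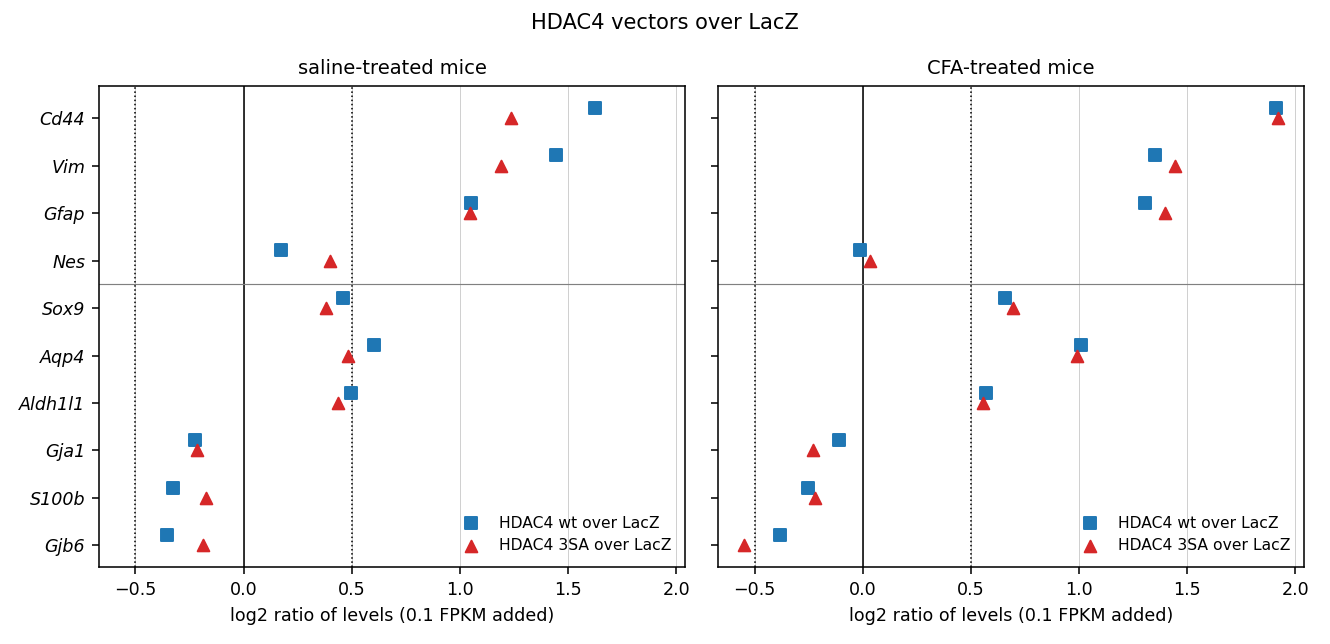
Log2 ratio of HDAC4 wt (squares) and HDAC4 3SA (triangles) over LacZ for each gene in saline mice (left) and CFA mice (right), after adding 0.1 FPKM, with dotted lines at the fold of 0.5. Cd44, Vim and Gfap lie above 1 in both panels, Sox9, Aqp4 and Aldh1l1 lie between 0.38 and 1.01, and Gja1, S100b and Gjb6 lie below 0.

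Ratios within 1 group value do not depend on the scale of a table. Gja1, which varied least (1.24 times from lowest to highest), was taken as the denominator. Gfap per Gja1 was 3.26 in LacZ saline, 3.66 in LacZ CFA, 7.90 in HDAC4 wt saline, 9.78 in HDAC4 wt CFA, 7.83 in HDAC4 3SA saline and 11.3 in HDAC4 3SA CFA. Aqp4 per Gja1 was 1.08 and 0.981 in LacZ saline and CFA, 1.92 and 2.13 in HDAC4 wt, and 1.76 and 2.28 in HDAC4 3SA. Both ratios were higher in each HDAC4 group than in LacZ. This follows from the levels above, since Gja1 was itself lower in all 4 HDAC4 groups, which adds to the ratios.

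S100b per Gja1 lay between 1.01 and 1.17 in the 6 groups, and Gjb6 per Gja1 between 0.378 and 0.494. The LacZ and HDAC4 values of both ratios overlapped. Within the reactive genes, Vim per Gfap was 0.134 in LacZ saline and between 0.148 and 0.175 in the other groups. Cd44 per Gfap was 0.00871 and 0.00832 in LacZ saline and CFA and between 0.0101 and 0.0132 in the HDAC4 groups. Gfap per Aqp4 was 3.01 and 3.74 in LacZ and between 4.12 and 4.96 in the HDAC4 groups.

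**Figure D4:**
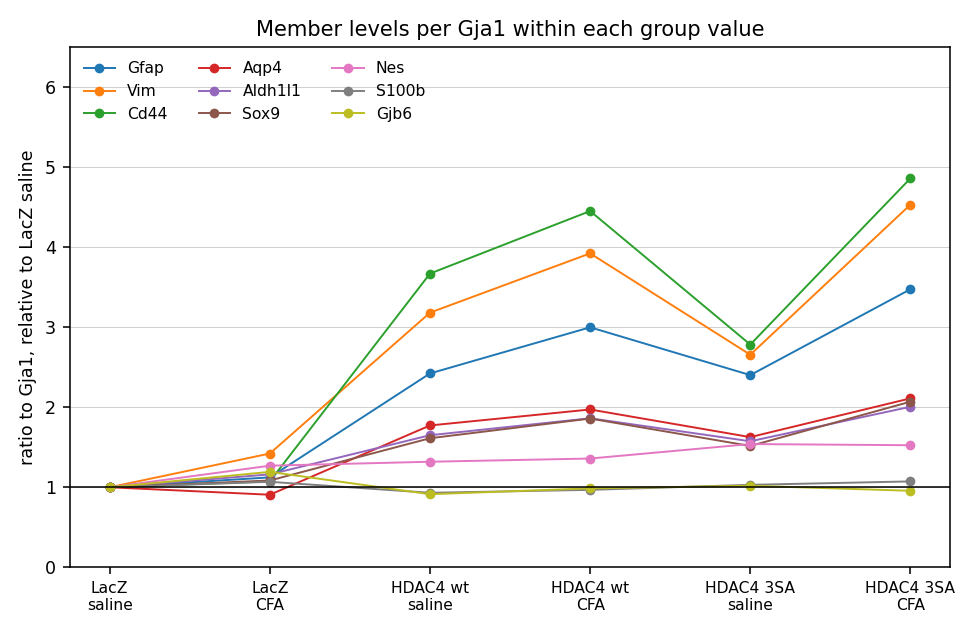
Level of each gene divided by that of Gja1 in the same group value, relative to LacZ saline (set to 1), across the 6 groups. In the 4 HDAC4 groups Cd44, Vim and Gfap lie highest, Aqp4, Aldh1l1 and Sox9 lie below them but above 1, and S100b and Gjb6 stay close to 1. The level of Gja1 was itself lower in these 4 groups than in LacZ.

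Other astrocyte genes were read from lists of known function, over the same genes in every comparison, so that the lists also hold genes under 1 FPKM. Without a minimum level, between 15.3% and 36.8% of all loci were past the fold in the comparisons. Among genes of transport and metabolism, none of 21 was past the fold upwards and 3 were past it downwards with HDAC4 wt over LacZ in saline mice, with a median log2 ratio of -0.22. With 10.8% of all loci past it downwards, this count is near the background. The 3 genes were Slc7a10, an amino acid transporter (45.9 to 28.1 FPKM), Slc6a11, a GABA transporter (161 to 104 FPKM), and Fam107a (33.6 to 20.3 FPKM). The 3 most abundant genes of the list did not pass the fold in saline mice. Clu, the secreted chaperone clusterin, was at 364 FPKM in LacZ saline and 453 in HDAC4 wt saline. Glul, the glutamine synthetase, was at 370.5 FPKM in LacZ saline and 386 in HDAC4 wt saline, and Ndrg2 at 413 and 352. With HDAC4 wt over LacZ in CFA mice 2 genes were past it upwards, Clu (log2 0.52) and Mfge8 (0.55), and 2 downwards, Slc7a10 and Slc6a11, beside 14.8% and 7.21% of all loci. With HDAC4 3SA over LacZ the list had 1 gene lower and 0 higher in saline mice, and 3 lower and 2 higher in CFA mice, where 11.7% of all loci were past the fold downwards and 16.5% upwards. After CFA no gene of the list passed the fold in LacZ or HDAC4 wt, and in HDAC4 3SA only Mfge8, a secreted bridging protein of phagocytosis, did (log2 0.70).

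Of 14 astrocyte transcription factors, none was past the fold upwards and 1 was past it downwards with HDAC4 wt over LacZ in saline mice (median 0.02), and 3 were past it downwards with HDAC4 3SA (median -0.03), beside 10.8% and 9.48% of all loci. The 3 genes were Id4, Hes5 and Lhx2, and Lhx2, also the 1 gene with HDAC4 wt, was under 1 FPKM in every group. After CFA, only Id4 in HDAC4 wt passed it (log2 0.63), so that 1 of 14 stands beside 9.13% of all loci. The dystrophin complex that anchors aquaporin 4 at the endfoot had a median of 0.02 with HDAC4 wt over LacZ in saline mice and of 0.10 with HDAC4 3SA. Of the 10 genes listed, only Sgca, a sarcoglycan, was past the fold in saline mice, beside 14.6% and 11.6% of all loci upwards. It was at 0.213 FPKM in LacZ saline against 3.76 in HDAC4 wt saline, and reached 1 FPKM only in the HDAC4 groups. Dag1 and Dtna, dystroglycan and a dystrobrevin, were not past the fold with either vector. Aqp4 was past it with HDAC4 wt (log2 0.60) and not with HDAC4 3SA (log2 0.48). After CFA, genes of the list passed the fold only in HDAC4 3SA. They were Sgca upwards (log2 0.72) and Sntb1 downwards (log2 -0.53), beside 10.1% and 4.55% of all loci. Among the other filament genes, the median of 8 was -0.23 with HDAC4 wt over LacZ in saline mice. Nefl, Nefh and Prph, which are filaments of neurons, were past the fold downwards, and Synm, the filament partner of Gfap and vimentin, was at 13.7 FPKM in LacZ saline and 14.0 in HDAC4 wt saline. After CFA the median was 0.14 with LacZ, 0.20 with HDAC4 wt and 0.21 with HDAC4 3SA. Prph was then past the fold upwards in HDAC4 wt (log2 1.30) and HDAC4 3SA (log2 1.47), Nefh in HDAC4 wt (log2 0.67), and no gene of the list in LacZ.

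Lists of genes reported to mark reactive astrocytes stood higher in the HDAC4 groups. All 8 pan-reactive genes that could be read were past the fold upwards with HDAC4 wt over LacZ in saline mice (median 0.97), and 7 of 8 with HDAC4 3SA (median 1.24), beside 14.6% and 11.6% of all loci. One of them, Aspg, was under 1 FPKM in LacZ saline. Serpina3n, a secreted protease inhibitor, was at 28.3 and 30.3 FPKM in LacZ saline and CFA, 111 and 163 in HDAC4 wt, and 82.7 and 156 in HDAC4 3SA. It resembled Gfap in that both LacZ values were close and all HDAC4 values higher. Lcn2, the siderophore-binding lipocalin that neutrophils also carry, was at 1.70 and 14.3 FPKM in LacZ, 3.40 and 10.7 in HDAC4 wt, and 5.12 and 15.9 in HDAC4 3SA, so that it rose after CFA in each vector. With CFA over saline, 3 of 8 pan-reactive genes passed the fold upwards in LacZ, 3 of 8 in HDAC4 wt and 6 of 8 in HDAC4 3SA. The medians were 0.39, 0.37 and 0.87, and 3.93%, 9.13% and 10.1% of all loci passed the fold upwards in the same order.

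The genes called A1, induced by inflammatory stimuli, had 9 of 12 past the fold upwards with HDAC4 wt over LacZ in saline mice (median 1.70) and 8 of 12 with HDAC4 3SA (median 1.37), 1 of them under 1 FPKM in LacZ saline. C3, the complement component, was at 8.29 and 8.77 FPKM in LacZ saline and CFA, 34.0 and 52.1 in HDAC4 wt, and 22.1 and 41.1 in HDAC4 3SA, so that all HDAC4 values lay above those of LacZ. The list also holds interferon-responsive genes that many cell types express, such as Psmb8, a proteasome subunit, at 4.04 FPKM in LacZ saline and 50.2 in HDAC4 wt saline. The genes called A2, described after ischaemia, had 6 of 11 past the fold upwards and 1 downwards with HDAC4 wt over LacZ (median 0.61), and 7 upwards and 1 downwards with HDAC4 3SA (median 0.55). Of those upwards, 4 with each vector were under 1 FPKM in LacZ saline, and of all loci 14.6% and 11.6% were past the fold upwards. After CFA, 8 of 12 A1 genes passed the fold upwards in HDAC4 3SA and 1 downwards (Fkbp5, log2 -0.58, under 1 FPKM), beside 4 upwards in LacZ and 4 in HDAC4 wt, 1 of each under 1 FPKM in saline. Of the 11 A2 genes, 6 passed it upwards in HDAC4 3SA and 1 downwards (B3gnt5, log2 -0.67, under 1 FPKM in CFA), and 1 upwards each in LacZ and HDAC4 wt. Of those upwards, 2 in HDAC4 3SA and the 1 gene in each of the others were under 1 FPKM in saline. Of all loci, 10.1% passed it upwards after CFA in HDAC4 3SA, 3.93% in LacZ and 9.13% in HDAC4 wt. In saline mice, 7 of 12 A1 genes were past it downwards with HDAC4 3SA over HDAC4 wt (median -0.52). Only Fkbp5, under 1 FPKM, was past it upwards, and 9.66% of all loci were past it in either direction. H2-D1 and H2-T23 of the A1 list belong to a family of near-identical genes, so their levels are uncertain.

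The route through gp130 cytokine receptors and STAT3, which is known to raise Gfap transcription, was read for its ligands, receptors and targets. Of 12 genes, 7 were past the fold upwards and 1 downwards with HDAC4 wt over LacZ in saline mice (median 0.72), and 5 upwards with HDAC4 3SA (median 0.35), beside 14.6% and 11.6% of all loci. Of those upwards, 4 and 3 were ligands or receptors under 1 FPKM in LacZ saline. Over the 9 genes with a mean of 1 FPKM or more the medians were 0.24 and 0.13. Stat3 was at 21.0 FPKM in LacZ saline, 30.5 in HDAC4 wt saline and 28.7 in HDAC4 3SA saline, and its log2 ratio of CFA over saline was 0.13, 0.19 and 0.38 in these vectors. Socs3, its feedback inhibitor, was at 1.14 and 1.91 FPKM in LacZ, 6.34 and 7.65 in HDAC4 wt, and 4.13 and 6.52 in HDAC4 3SA. Osmr, the receptor of oncostatin M, was at 1.07, 1.63, 4.61, 6.26, 3.80 and 7.24 FPKM in the order of the groups. The shared receptor Il6st was not past the fold, at 25.8 FPKM in LacZ saline and 28.6 in HDAC4 wt saline, and the receptor Lifr was past it downwards, at 10.1 and 6.74.

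Genes that bind or cooperate with CD44 also stood higher, with 6 of 10 past the fold upwards and 1 downwards in saline mice with HDAC4 wt over LacZ (median 0.65), and 5 upwards and 1 downwards with HDAC4 3SA (median 0.46), beside 14.6% and 11.6% of all loci upwards. Spp1, osteopontin, was at 39.9 and 47.6 FPKM in LacZ saline and CFA, 144.5 and 206 in HDAC4 wt, and 121 and 329.5 in HDAC4 3SA. Msn, moesin, which links the tail of CD44 to actin, was at 18.7 and 21.2 FPKM in LacZ, 39.1 and 50.8 in HDAC4 wt, and 33.4 and 60.5 in HDAC4 3SA. Spp1 and Msn were, like Cd44, highest in HDAC4 3SA CFA. Cd74, the invariant chain of antigen presentation and the most abundant gene of the list, was at 17.8 and 43.5 FPKM in LacZ, 397 and 540.2 in HDAC4 wt, and 204 and 332 in HDAC4 3SA, so that it was highest in HDAC4 wt CFA. The hyaluronan synthases Has1, Has2 and Has3 were at or below 1.08 FPKM in every group. After CFA, 4 of 10 genes passed the fold upwards in HDAC4 3SA (median 0.32), 1 of them (Hmmr) under 1 FPKM, beside 10.1% of all loci. The 1 gene each in LacZ and HDAC4 wt stands beside 3.93% and 9.13%.

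Markers of other cells moved with these results. Summed over the 10 microglial genes, the level was 182 and 208 FPKM in LacZ saline and CFA, 974 and 1232 in HDAC4 wt, and 738 and 1360 in HDAC4 3SA. All 10 microglial genes were past the fold upwards with either HDAC4 vector over LacZ in CFA mice, and 9 of 10 in saline mice. The medians in saline mice were 1.92 for HDAC4 wt and 1.60 for HDAC4 3SA. With HDAC4 wt and HDAC4 3SA, 14.8% and 16.5% of all loci were past it upwards in CFA mice, and 14.6% and 11.6% in saline mice. C1qa, a complement subunit made by microglia, was at 37.5 and 49.9 FPKM in LacZ saline and CFA, 360.2 and 486 in HDAC4 wt, and 254 and 500.0 in HDAC4 3SA. P2ry12, a marker of resting microglia, was at 11.1 and 13.9 FPKM in LacZ saline and HDAC4 wt saline. After CFA, 7 of 10 microglial genes passed the fold upwards in HDAC4 3SA (median 0.71) and none in LacZ (0.12) or HDAC4 wt (0.27). Of all loci, 10.1%, 3.93% and 9.13% passed it upwards in the same order. Microglia and leukocytes also express Vim, Cd44, Spp1 and Msn, and the part of these cells in the levels of those genes was not tested.

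The leukocyte genes, 6 of 10 of them under 1 FPKM in LacZ saline, were past the fold upwards, 10 of 10, in saline mice with either HDAC4 vector over LacZ (medians 1.89 and 2.46). Of all loci, 14.6% and 11.6% were. In CFA mice 6 were past it upwards and 4 downwards with either vector (medians 0.97 and 0.89). Of all loci, 14.8% and 16.5% were past it upwards and 7.21% and 11.7% downwards. The 4 lower genes were the neutrophil genes S100a8, S100a9, Ngp and Camp. After CFA in LacZ mice, 8 of 10 leukocyte genes were past it upwards (median 0.85), beside 3.93% of all loci. In HDAC4 wt 3 were past it upwards and 2 downwards (median -0.03), beside 9.13% and 4.94% of all loci. In HDAC4 3SA 4 were past it upwards and 4 downwards (median 0.18), beside 10.1% and 4.55%. The summed level of the 10 leukocyte genes was 33.6 and 139 FPKM in LacZ saline and CFA, 382 and 502 in HDAC4 wt, and 287 and 612 in HDAC4 3SA, and no gene of either list was at 0 in any group. Lyz2, a lysozyme of myeloid cells, was at 20.6 FPKM in LacZ saline, 322 in HDAC4 wt saline and 213 in HDAC4 3SA saline. The neutrophil gene S100a9 was at 4.96 FPKM in LacZ saline and 52.8 in LacZ CFA, and at 19.2 and 13.8 in HDAC4 wt, and at 27.0 and 18.4 in HDAC4 3SA. It was highest in LacZ CFA, where Gfap and Cd44 were low. The neuronal genes had medians of -0.34 with HDAC4 wt and -0.29 with HDAC4 3SA over LacZ in saline mice, where 1 of 8 was past the fold downwards in each, near the 10.8% and 9.48% of all loci. In CFA mice 3 of 8 and 5 of 8 were, beside 7.21% and 11.7% of all loci. Snap25, a synaptic protein, was at 1227 and 1135 FPKM in LacZ saline and CFA, 795 and 719 in HDAC4 wt, and 861 and 646 in HDAC4 3SA.

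In saline mice with HDAC4 wt over LacZ, the median was 0.30 for endothelial, 0.21 for pericyte, 0.39 for leptomeningeal fibroblast, 0.08 for oligodendrocyte, 0.04 for Schwann and 0.18 for ependymal genes. With CFA over saline in LacZ mice, 8 of 9 ependymal genes were past the fold downwards (median -0.86), beside 3.23% of all loci. Of these, 4 were under 1 FPKM in LacZ CFA. In the same mice 5 of 8 Schwann genes were past it upwards (median 0.61), beside 3.93% of all loci. In HDAC4 3SA mice 4 of 8 Schwann genes were past it downwards after CFA (median -0.50), beside 4.55% of all loci. In CFA mice, 8 of 9 ependymal genes were past it upwards with HDAC4 wt over LacZ (median 1.11) and 9 of 9 with HDAC4 3SA (median 1.24). Of these, 4 and 5 were under 1 FPKM in LacZ CFA, and 14.8% and 16.5% of all loci were past it upwards. Of 6 skeletal muscle genes, 5 were past the fold downwards with HDAC4 wt over LacZ in saline mice (median -1.43) and 6 upwards with HDAC4 3SA (median 1.61), the latter as large as the microglial median. With each vector 1 of these was under 1 FPKM in the lower group, and 10.8% and 11.6% of all loci were past the fold in these directions. With CFA over saline the muscle median was 1.04 (LacZ), -1.57 (HDAC4 wt) and -0.24 (HDAC4 3SA). In CFA mice it was -4.46 with HDAC4 wt over LacZ and 0.24 with HDAC4 3SA. For HDAC4 wt CFA over HDAC4 wt saline and over LacZ CFA, 5 muscle genes each were past the fold downwards. Of these, 4 were under 1 FPKM in HDAC4 wt CFA, and 4.94% and 7.21% of all loci were past it downwards. The part of these cell types in the astrocyte values was not tested. None of the 10 astrocyte genes is listed at 0.

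**Figure D5:**
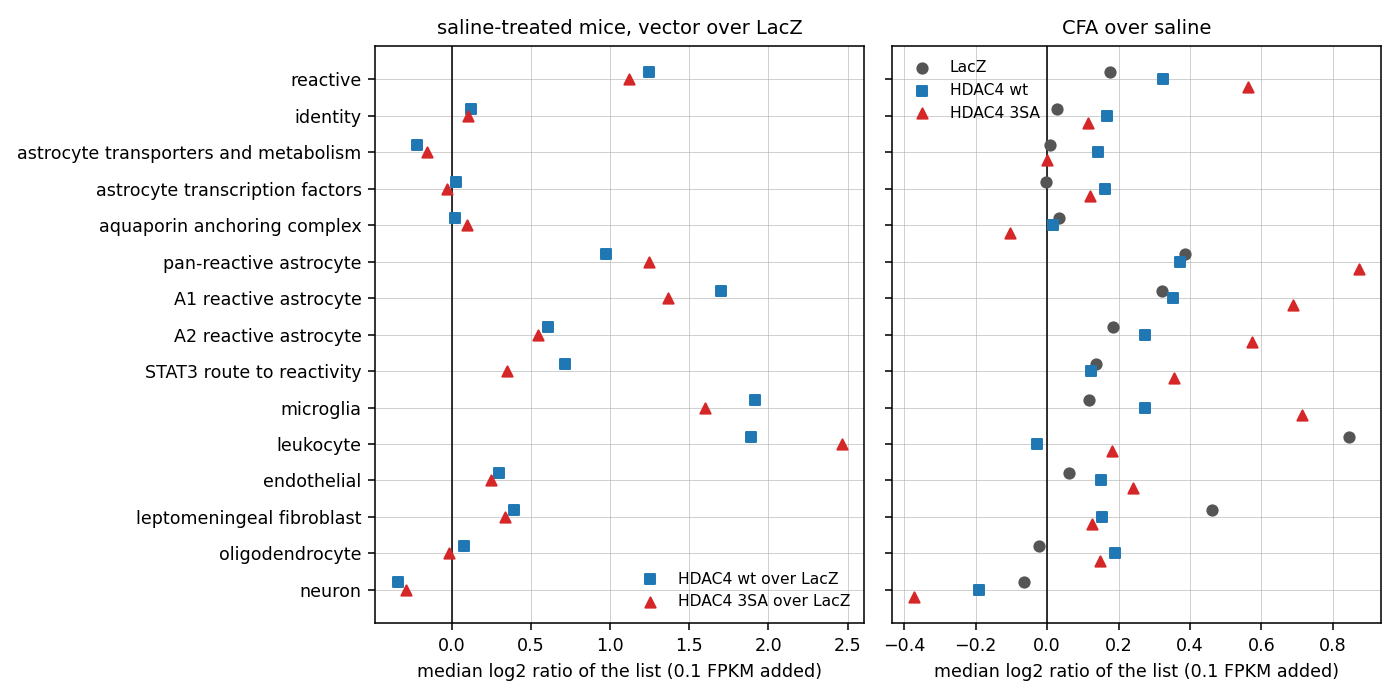
Median log2 ratio of each list of genes, over the same genes in every comparison, for the HDAC4 vectors over LacZ in saline mice (left) and for CFA over saline within each vector (right), after adding 0.1 FPKM. The reactive genes and the reactive astrocyte, microglial and leukocyte lists lie to the right in the left panel, the identity genes and the lists of transcription factors and aquaporin anchoring lie, with the oligodendrocyte list, closest to 0, and the transport list (-0.22 and -0.16) and the neuronal list (-0.34 and -0.29) lie to the left. The intermediate filament, CD44 partner, ependymal, pericyte, Schwann and skeletal muscle lists are not drawn.

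The loci with the pattern most like that of Gfap, by Pearson's r of log2 levels over the 6 group values, were Atxn1l, Rbms1, Ccdc117, Vcan and Snx18. Their r was between 0.9986 and 0.9996 among 10347 loci whose mean level reached 5 FPKM. Of these loci, 13.0% had an r above 0.95, and with 6 values that share tables and groups this is a description without a test. Vcan, the proteoglycan versican, was at 3.40 and 3.69 FPKM in LacZ saline and CFA, 5.90 and 7.16 in HDAC4 wt, and 5.84 and 7.21 in HDAC4 3SA. Among the other astrocyte genes, r with Gfap was 0.99 for Cd44 and Aldh1l1, 0.98 for Vim and Sox9, 0.97 for Aqp4 and 0.57 for Nes. It was -0.93 for Gja1, -0.87 for Gjb6 and -0.86 for S100b. For Aqp4 the most similar loci were Dnajc13, Kdm5c, Hps5, Gnai3 and Twf1, with an r of 0.9974 to 0.9996.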

How the data were processed

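Total RNA of dorsal spinal cord (L3–5) was sequenced from 18 mice in 6 groups of 3. The authors prepared strand-specific libraries from poly-A RNA, aligned the single-end reads with TopHat and Bowtie to mm10 (GRCm38) and estimated levels with Cufflinks and Cuffdiff, the tools named in the submitters' processing notes. They deposited 3 tables, 1 per vector, with the FPKM of the saline and of the CFA group at 34579 loci. Whether counting used the strand is not given in the sources used here. The tables also hold the authors' log2 fold changes, test statistics, p-values and q-values, which were not used. Exact read totals per library and counts per locus are not given in the sources used here, and no interval was computed.

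Log2 ratios were computed after adding 0.1 FPKM (Python 3.11.15, pandas 2.3.3, numpy 2.4.6) and tested on simulated data. The fold of 0.5 is that of the study's methods. Loci at another place in another table (386) were left out of comparisons between vectors. The members, the 19 further lists (199 genes, 188 matched) and the comparisons were chosen with earlier results of these data known. Named genes were the 10 members, genes among the 3 most abundant or the 4 furthest past the fold of each list, Hdac4, and the 5 loci most like Gfap and Aqp4. C3, Fkbp5, B3gnt5, Synm, Il6st, Lifr, P2ry12, Tmem119, Cx3cr1, Siglech and the hyaluronan synthases fall outside this rule and were chosen after their values were seen. Genes of a list were read where they were above 0 in all groups, so that the same genes enter every comparison. This was chosen after the data were seen, in place of a minimum mean of 1 FPKM, which lets genes in through the group where they are high. Annotation was GENCODE M21 (GRCm38) and promoters were from RefSeq (GRCm38.p6). Alternatives varied the added FPKM, the fold, the minimum level, the centring, the rows of a name and the members.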

Additional observations from a re-analysis of the deposited data

Results flagged for a closer look

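The CFA change of Aqp4 had opposite directions in LacZ and HDAC4 3SA mice. Its log2 ratio of CFA over saline was -0.22 in LacZ and 0.29 in HDAC4 3SA, a difference of 0.51. Each is a ratio of group values over 3 mice, neither passed the fold, and the difference was not tested.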

How the results depend on the processing

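No value past the fold changed sign under the alternatives that were run. Of the summary values, 131 stayed within set limits and 13 did not. For a gap between medians the limit was 0.25 log2 units, more than the gap of 0.15 for CFA in LacZ. That gap ran from 0.06 to 0.23 when single reactive genes were left out. Of 360 values of single genes under other added FPKM, centring and rows, 359 kept their side of the fold, and Sox9 with HDAC4 wt over LacZ in saline mice passed it when its rows were summed (log2 0.52). At a fold of 0.25 the number of genes past it was 2 for CFA with LacZ, 3 with HDAC4 wt and 6 with HDAC4 3SA, and in saline mice 8 for HDAC4 wt over LacZ, 7 for HDAC4 3SA over LacZ and 2 for HDAC4 3SA over HDAC4 wt. At a fold of 1 it was 0 for CFA in HDAC4 3SA and 3 for HDAC4 3SA over LacZ in CFA mice, so the 2 genes past the fold after CFA depend on the threshold. The gap between the reactive and identity medians was 0.99 with means in place of medians for HDAC4 3SA over LacZ in CFA mice. Leaving out S100b, chosen after seeing the data because its locus overlaps other genes, gave gaps of 0.79 (HDAC4 wt) and 0.74 (HDAC4 3SA) over LacZ in saline mice and 0.76 and 0.86 in CFA mice. The share of loci past the fold was 7.16% to 28.3% across the comparisons, 4.4% to 20.7% at 10 FPKM or more and 15.3% to 36.8% without a minimum. No paired analysis was possible because the tables hold 1 value per group, and leaving out a mouse was not run for the same reason. The spread between mice and the reads of each library are not known from the tables, which limits every ratio given.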
